A study of Mus musculus with 63 samples.

Results

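The 10 genes described here mark inhibitory interneurons and were measured by RNA-sequencing of mouse entorhino-hippocampal slice cultures: Gad1, Gad2, Slc32a1, Sst, Pvalb, Npy, Vip, Cck, Reln and Calb2. They were chosen by symbol, as 10 of the 55291 gene symbols counted, and all 10 were counted in every library and passed the filter on low counts in every comparison. The study examined how partial denervation and the loss of synaptopodin alter the dentate gyrus (DG) and area CA3, and which transcripts come down with synaptopodin. Cultures from mice of either sex were made at postnatal day 3 to 5 and matured for at least 18 days. They came from C57BL/6J mice (wildtype, Synpo+/+) or from B6.129-Synpotm1Mndl/Dllr mice (Synpo-/-), a line bred back onto C57BL/6J. In the entorhinal cortex lesion (ECL) the perforant path was cut with a scalpel, and lesioned cultures were compared with non-lesioned controls. The time of collection was 3 days after the cut (3 dp ECL) in the regional experiment, and the labels give none for the coIP experiment.

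In the regional experiment each of 39 libraries held 1 DG or 1 CA3 cut out of 1 culture. For CA3 there were 2 control and 3 lesioned Synpo+/+ libraries and 6 control and 6 lesioned Synpo-/- libraries. For DG there were 4 control and 7 lesioned Synpo+/+ libraries and 7 control and 4 lesioned Synpo-/- libraries. In the co-immunoprecipitation (coIP) experiment 6 cultures were lysed per sample, an antibody against synaptopodin was used to pull down RNA-containing complexes, and an aliquot of the lysate was kept as input. It comprised 5 input and 5 coIP libraries from control and as many from lesioned Synpo+/+ cultures, and 2 input and 2 coIP libraries from Synpo-/- cultures, whose lesion state the labels do not give. Input and coIP are whole-culture samples, so they also contain CA1, subiculum and entorhinal cortex.

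Gad1 and Gad2 encode the enzymes that make the inhibitory transmitter GABA, and Slc32a1 encodes the carrier that loads it into synaptic vesicles. These genes are used by inhibitory neurons of every kind. The others mark subtypes, and some are known to be shared with other cells. They encode the neuropeptides somatostatin (Sst), neuropeptide Y (Npy), vasoactive intestinal peptide (Vip) and cholecystokinin (Cck). The rest are the calcium-binding proteins parvalbumin (Pvalb) and calretinin (Calb2), and the secreted matrix protein reelin (Reln). In the mouse hippocampus Calb2 is also made by hilar mossy cells and Cajal-Retzius cells, Reln by Cajal-Retzius cells, and Cck by some pyramidal and mossy cells. In bulk tissue, fewer cells of a type and less RNA per cell cannot be told apart.

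The genes lie on 8 chromosomes of GRCm38 and have between 566 exonic bases for Npy and 23738 for Reln. Gad1 (chr2:70553072-70602014), Gad2 (chr2:22622205-22693874) and Slc32a1 (chr2:158610767-158615748) are on chromosome 2, plus strand. Sst (chr16:23889573-23890958), Pvalb (chr15:78191114-78206400), Cck (chr9:121489824-121495694), Reln (chr5:21884454-22344702) and Calb2 (chr8:110137502-110168210) are on the minus strand, and Npy (chr6:49822710-49829507) and Vip (chr10:5639218-5647617) on the plus strand. Counting did not use strand, and 24.9% of the exonic bases of Slc32a1 are shared with the opposite-strand gene Gm14205, so reads there could not be assigned to one of the genes; Gm14205 itself stood at 0 to 0.0652 counts per 1000000 counts (CPM).

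Sequence upstream of the transcript start was available from RefSeq for 9 of the 10 genes (GRCm38.p6, no entry for Calb2). The 250 bases before the start of Vip and of Reln are shown as examples of genes that differed between DG and CA3 in controls of both genotypes. Npy and Gad1 also differed in both and are not shown. A short stretch before the RefSeq start of Sst is shown for its classical cyclic AMP response element. Capitals mark matches to TATAAA (the TATA box) in Vip and to TGACGTCA (the cyclic AMP response element) in Sst; both were searched on both strands.
Vip promoter, chr10:5638968-5639217, plus strand: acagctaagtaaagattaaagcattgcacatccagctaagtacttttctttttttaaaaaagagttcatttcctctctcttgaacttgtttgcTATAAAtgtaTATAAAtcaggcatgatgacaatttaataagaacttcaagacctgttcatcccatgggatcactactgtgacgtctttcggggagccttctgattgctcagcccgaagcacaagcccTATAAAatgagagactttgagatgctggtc
Reln promoter, chr5:22344706-22344955, minus strand: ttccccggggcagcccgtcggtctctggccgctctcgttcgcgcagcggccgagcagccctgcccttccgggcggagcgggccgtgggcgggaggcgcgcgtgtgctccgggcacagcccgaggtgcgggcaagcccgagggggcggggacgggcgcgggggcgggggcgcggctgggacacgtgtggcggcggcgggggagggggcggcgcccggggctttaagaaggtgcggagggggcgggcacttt
Sst site, chr16:23890874-23890903, minus strand: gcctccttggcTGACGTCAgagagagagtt
The RefSeq start used for Sst lies inside the GENCODE gene span given above, so this stretch is within that span and upstream only of the RefSeq start. TGACGTCA occurred in 1.55% of 32851 RefSeq promoter windows of this length and in 1 of the 9 matched genes, Sst, starting 48 bases before the RefSeq start. TATAAA occurred in 12.4% of the windows and in 2 of the 9, Gad1 (opposite strand) and Vip, which held 3 matches, the nearest starting 30 bases before the start. The Reln window held neither motif and was 80% G and C, compared with 38.4% for Vip. These matches are letters in a window and were not tested as binding sites.

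Total counts were 14055930 to 46043990 in the regional and 11601154 to 53682143 in the coIP libraries. Synpo, the targeted gene, ran against the labels in the regional libraries at the level of whole-gene counts. In control DG it stood at 46.7 to 71.1 CPM in libraries labelled Synpo-/- and 21.1 to 27.2 CPM in those labelled Synpo+/+, and in control CA3 at 32.3 to 42.7 CPM and at 25.6 and 27.6 CPM, without overlap. The genotypes did not overlap in lesioned CA3 either and overlapped in lesioned DG (32.6 to 43.1 and 25.0 to 36.9 CPM). The coIP experiment did not show this. Synpo-/- input had 24.9 and 28.5 CPM, inside the 17.9 to 30.9 CPM of Synpo+/+ control input. Synpo-/- coIP had 27.2 and 31.3 CPM, against 28.1 to 43.4 CPM in control and 35.5 to 48.7 CPM in lesioned Synpo+/+ coIP. The labels do not say which part of the gene was deleted. Genotypes are therefore given as labelled throughout, and every direction between them rests on the labels. One library stood apart. The library labelled Synpo+/+ DG ECL 5 had 12.7 CPM of the granule cell transcription factor Prox1, against 123 to 235 CPM in the other DG libraries and 11.2 to 39 CPM in CA3. Its 10 CA3 pyramidal cell markers summed to 1091 CPM, against 350 to 588 CPM in the other DG libraries. The region comparison after the lesion and the lesion differences of Gad1, Gad2 and Npy in Synpo+/+ DG are given with and without it. Other values of lesioned Synpo+/+ DG include it. Among the CA3 libraries the 39 CPM of Prox1 came from Synpo-/- CA3 control 1, and the next highest had 25.2 CPM. Values of Synpo-/- CA3 controls include that library.

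Per transcript length, Sst and Npy were the most abundant of the 10 messages in all 14 groups. In DG of Synpo+/+ controls Sst reached 1575 ± 624 (SD, n = 4) and Npy 1504 ± 361 transcripts per 1000000 (TPM), and their ranges overlapped. Calb2 (234 ± 112), Pvalb (158 ± 98.5), Cck (104 ± 69.1), Gad1 (101 ± 12.5) and Gad2 (91.6 ± 9.9) followed, each overlapping its neighbour in the order. Vip (45.3 ± 14.6 TPM), Reln (9.0 ± 0.895 TPM) and Slc32a1 (4.16 ± 2.33 TPM) formed the lower end, with no overlap between Gad2 and Vip, between Vip and Reln or between Reln and Slc32a1.

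The order differed most for Calb2 between the regions. In CA3 of Synpo+/+ controls (n = 2) Sst was at 951 ± 55.1 TPM, Npy at 767 ± 156, Pvalb at 121 ± 14.3, Gad2 at 70.0 ± 11.3, Gad1 at 64.0 ± 2.32, Cck at 47.2 ± 2.65, Vip at 18.9 ± 1.05, Calb2 at 9.69 ± 1.18, Slc32a1 at 3.66 ± 1.12 and Reln at 2.04 ± 0.388. Here Gad2 and Gad1 were the only neighbours whose ranges overlapped. Calb2 thus held rank 3 in DG and rank 8 in CA3 of these controls, a comparison of ranks without a test.

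**Figure D1:**
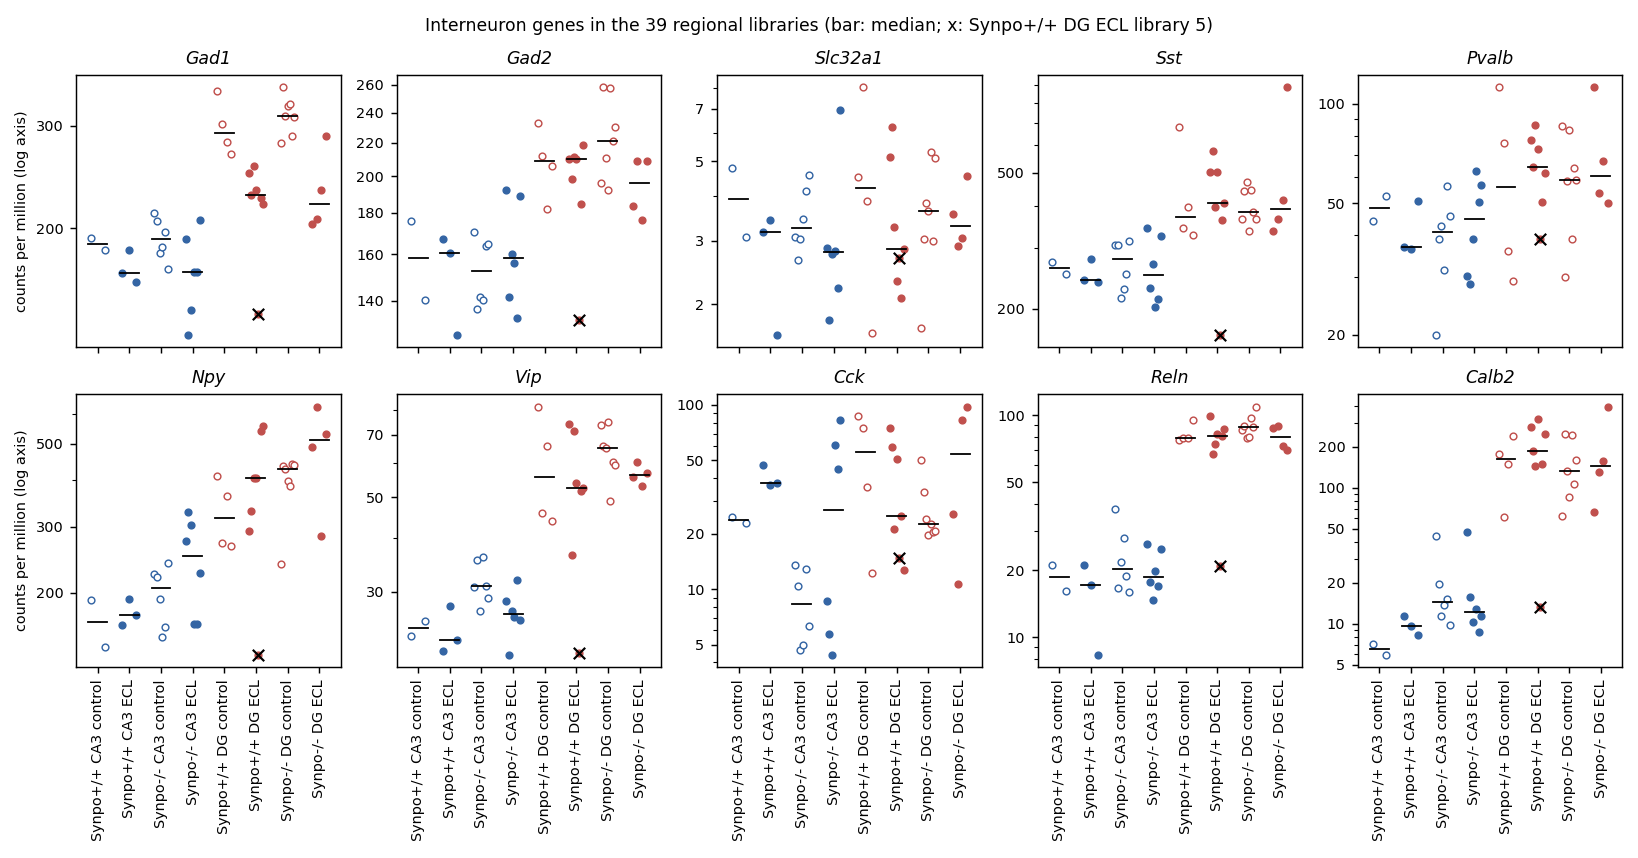
CPM (log axes) of the 10 genes in each of the 39 regional libraries, with CA3 in blue, DG in red, controls open, lesioned cultures filled, a bar at each group median and a cross on Synpo+/+ DG ECL library 5. Reln and Calb2 separate the regions most clearly, and the crossed library lies with CA3 for both.

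The first comparison asked how the interneuron genes differ between DG and CA3. Reln, Vip, Npy and Calb2 were higher in DG. In Synpo+/+ controls 5 of the 10 genes passed an adjusted p of 0.05 (quasi-likelihood test of edgeR, adjusted over all genes by the method of Benjamini and Hochberg), all higher in DG, where 5.48% of all genes tested were called. In Synpo-/- controls 8 were called higher, against 25.5% of all genes. None of the 10 was called lower in DG in any of the 4 region comparisons. The labels call the libraries biological replicates, and each held tissue of 1 culture, so p-values measure the spread between cultures. Neither labels nor methods say whether a DG and a CA3 library shared a culture, or how many animals were used. Same-numbered DG and CA3 libraries of Synpo-/- controls deviated together at r = -0.0151 to 0.540, and the test did not pair them.

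Reelin is secreted and controls cell positioning and synapse function. Reln stood at 77.4, 79, 78.9 and 95.2 CPM in DG of Synpo+/+ controls and at 21.1 and 16.1 CPM in CA3. All DG values lay above both CA3 values (log2 fold change 2.03 ± 0.16 (SE), edgeR adjusted p = 3.56e-06). In Synpo-/- controls the lowest, median and highest values were 79.4, 88.5 and 109 CPM in DG and 15.9, 20.3 and 37.7 CPM in CA3, again without overlap (1.88 ± 0.17, edgeR adjusted p = 2.97e-07). The call held in 11 of 11 alternative settings for Synpo+/+ controls and 5 of 5 for Synpo-/- controls. Counts of settings here and for the other genes leave out the reported one.

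Calretinin binds calcium in the cytoplasm. Calb2 was measured at 176, 61.2, 149 and 241 CPM in DG and at 7.04 and 5.94 CPM in CA3 of Synpo+/+ controls (log2 fold change 4.48 ± 0.68, edgeR adjusted p = 0.0191). DG values spread widely among themselves, and the lowest was far above both CA3 values. In Synpo-/- controls Calb2 ranged over 62.4, 132 and 249 CPM (lowest, median, highest) in DG and 9.84, 14.5 and 44.3 CPM in CA3, with a smaller difference (2.87 ± 0.48, edgeR adjusted p = 0.00089). The 44.3 CPM came from 1 CA3 library, Synpo-/- CA3 control 1, the others being at or below 19.6 CPM. This library also had the most Prox1 of its group, at 38.97 CPM against 14.2 to 18.4 CPM, and the most Reln (37.7 CPM). Its 10 granule cell markers summed to 227 CPM, against 133 to 152 CPM in the others. The part of dentate tissue in its Calb2 value, and so in the smaller difference, was not tested.

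Vip marks a class of interneurons that mainly contacts other interneurons. Its values were 81.4, 45.8, 65.8 and 43.9 CPM in DG and 23.6 and 25.6 CPM in CA3 of Synpo+/+ controls (1.14 ± 0.24, edgeR adjusted p = 0.0115). Synpo-/- controls had 48.9 to 74.9 CPM in DG and 27 to 36.3 CPM in CA3 (0.95 ± 0.10, edgeR adjusted p = 5.74e-07). The regions did not overlap for Vip in either genotype. In Synpo+/+ controls Vip was called in 9 of 11 settings and lost without either CA3 control (edgeR adjusted p = 0.173 and 0.129).

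Neuropeptide Y dampens transmitter release at many synapses. In Synpo+/+ controls Npy was found at 411, 271, 363 and 267 CPM in DG and 191 and 143 CPM in CA3 (0.86 ± 0.20, edgeR adjusted p = 0.0185). In Synpo-/- controls it lay between 238 and 442 CPM in DG and between 152 and 240 CPM in CA3 (0.92 ± 0.15, edgeR adjusted p = 0.000122). One DG library, at 238 CPM, fell just inside the CA3 range. In Synpo+/+ controls Npy and Calb2 were each called in 7 of 11 settings, with adjusted p up to 0.214 and 0.308. Without CA3 control 2, Reln alone of the 10 was called.

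The GABA-synthesis genes differed by less. Gad1 had 343, 301, 281 and 268 CPM in DG and 193 and 183 CPM in CA3 of Synpo+/+ controls (0.54 ± 0.15, edgeR adjusted p = 0.0444), a call kept in 5 of 11 settings. It was clearer in Synpo-/- controls (280 to 349 CPM in DG, 171 to 212 CPM in CA3, 0.62 ± 0.08, edgeR adjusted p = 8.94e-06). Gad2 passed the test in Synpo-/- controls (0.47 ± 0.10, edgeR adjusted p = 0.00131), and in Synpo+/+ controls its difference was 0.28 ± 0.15 (edgeR adjusted p = 0.358). The vesicular carrier Slc32a1 stood at 1.67 to 8.06 CPM over the control libraries of both regions, with differences of 0.07 ± 0.44 in Synpo+/+ and -0.03 ± 0.22 in Synpo-/- controls (edgeR adjusted p = 0.965 and 0.938).

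Sst, the peptide of dendrite-targeting interneurons, and Cck passed the test in Synpo-/- and missed it in Synpo+/+ controls; the difference between the genotypes' regional effects was not tested. Sst had 0.49 ± 0.12 (edgeR adjusted p = 0.00427) in Synpo-/- and 0.61 ± 0.26 (edgeR adjusted p = 0.239) in Synpo+/+ controls, and its regions did not overlap in either. Cck differed by 1.54 ± 0.33 (edgeR adjusted p = 0.00314) in Synpo-/- and 1.03 ± 0.86 (edgeR adjusted p = 0.641) in Synpo+/+ controls. Its 4 Synpo+/+ DG controls were at 87.4, 74.9, 35.9 and 12.3 CPM, so the lowest lay below both CA3 controls (24.6 and 22.7 CPM). A list of 10 markers of CA1, subiculum and entorhinal neurons summed to 523, 461, 281 and 239 CPM in the same 4 libraries, in the same order; its part in the Cck values was not tested. Pvalb, found in fast-spiking basket and axo-axonic cells, had 0.26 ± 0.63 and 0.52 ± 0.27 (edgeR adjusted p = 0.894 and 0.177).

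After the lesion the regional differences were read with and without the library that resembled CA3. With all 7 Synpo+/+ DG libraries 1 gene, Reln, was called (2.08 ± 0.41, edgeR adjusted p = 0.0435), beside 1.31% of all genes. This call was kept in 5 of 15 settings and lost without the filter on low counts and without any 1 library other than Synpo+/+ DG ECL 5 (adjusted p up to 0.189). Without Synpo+/+ DG ECL 5, 6 genes were called, where 20% of all genes were: Reln (2.20 ± 0.22), Calb2 (4.29 ± 0.32), Npy (1.03 ± 0.18), Vip (1.01 ± 0.19), Sst (0.64 ± 0.13) and Pvalb (0.52 ± 0.17). That library had 21.0 CPM of Reln, against 66.7 to 99.3 CPM in the other 6, and 13.2 CPM of Calb2, against 146 to 320 CPM. In lesioned Synpo-/- cultures Npy (0.85 ± 0.22), Vip (0.93 ± 0.12), Reln (1.85 ± 0.14) and Calb2 (3.30 ± 0.66) were called, 4 of the 10 beside 13.6% of all genes.

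**Figure D2:**
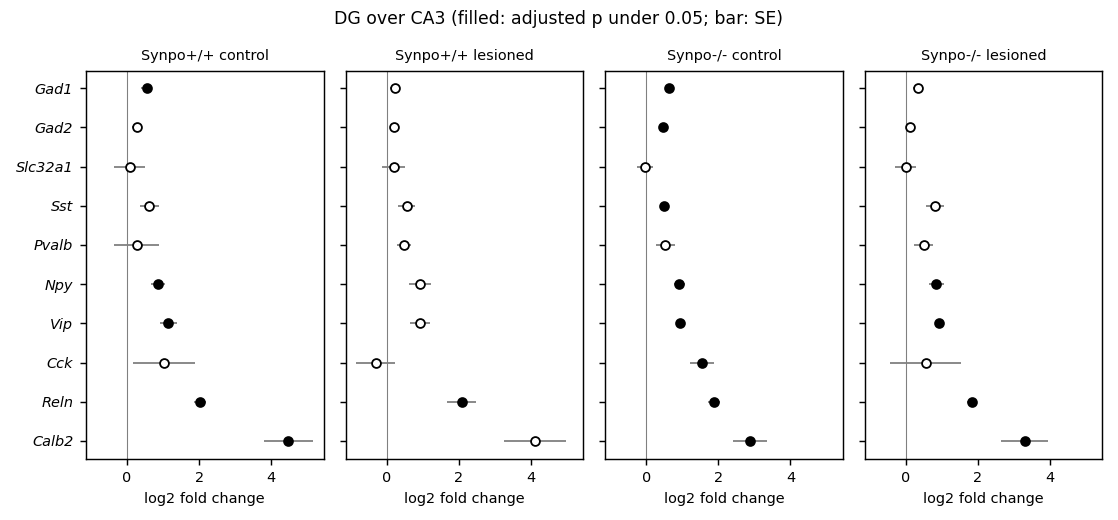
Fitted log2 fold change of DG over CA3 for each gene in the 4 region comparisons, with standard errors as bars and filled points for an adjusted p under 0.05. Calb2 and Reln have the largest values in each panel, and Slc32a1 lies near 0 in each.

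Genes of other lists were read beside these differences. Of 8 Cajal-Retzius cell genes, all tested, 4 were higher in DG of Synpo+/+ controls and 6 in Synpo-/- controls, with median log2 fold changes of 1.37 and 1.59, compared with 0.02 and 0.05 over all genes. They included Trp73 (2.11 ± 0.35 and 1.34 ± 0.21) and Lhx1 (1.71 ± 0.46 and 2.13 ± 0.28), transcription factors of these cells. The 8 genes summed to 130 to 187 CPM in control DG of both genotypes and 39.6 to 85.8 CPM in control CA3; none was at 0 throughout. In Synpo+/+ DG ECL 5 the sum was 63.0 CPM. Of 7 hilar mossy cell genes, all tested, 0 were higher and 1 lower in DG of Synpo+/+ controls. In Synpo-/- controls 1 was higher and 1 lower. The medians were -0.13 and -0.19. These 7 genes summed to 414 to 522 CPM in control DG and 690 to 869 CPM in control CA3 of both genotypes. The part of either list in the Reln and Calb2 differences was not tested.

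Of 36 further GABA neuron and interneuron genes, 35 were tested in controls and 7 were called higher and 2 lower in DG of Synpo+/+, and 13 higher and 2 lower in Synpo-/- controls. The list medians were 0.14 and 0.24. Among all genes, 679 of 25656 were called higher and 727 lower in Synpo+/+ controls. In Synpo-/- controls 2785 of 21408 were higher and 2680 lower. Ndnf, a secreted factor of neurogliaform and Cajal-Retzius cells that stands on both lists (2.36 ± 0.17), Tac1, the substance P precursor (2.06 ± 0.28), and Pnoc, the nociceptin precursor (1.04 ± 0.20), were higher in DG of Synpo+/+ controls. The receptor tyrosine kinase gene Kit was lower (-0.73 ± 0.14). Among 13 receptors of these peptides and of reelin, the somatostatin receptors Sstr1 (2.42 ± 0.52) and Sstr2 (1.26 ± 0.33) and the neuropeptide Y receptor Npy1r (0.56 ± 0.13) were higher, while Npy2r (-1.83 ± 0.39) and Sstr3 (-1.28 ± 0.34) were lower. In all, 3 receptors were higher and 2 lower in Synpo+/+, and 5 higher and 2 lower in Synpo-/- controls.

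The next comparison asked whether the genes moved by 3 dp ECL. Of the 10, edgeR called Cck higher in Synpo+/+ CA3 and Gad1 lower in Synpo-/- DG, and each call was lost in some settings. In Synpo+/+ CA3 1 of the 10 was called, beside 1.76% of all genes, and in Synpo-/- DG 1 of 10, beside 8.44%. The count in Synpo-/- DG is close to the share of all genes and does not set the 10 apart. In Synpo+/+ DG edgeR called 0 of the 10, beside 12.5% of all genes, and DESeq2 called 0. At an unadjusted p under 0.05 there was 1 of the 10, beside 7783 of 23720 genes. In Synpo-/- CA3 edgeR called 0, beside 0.077% of all genes, and DESeq2 called 0. Here too 1 of the 10 had an unadjusted p under 0.05, beside 1489 of 20772 genes.

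Gad1 in Synpo-/- DG ranged over 280, 312 and 349 CPM (lowest, median, highest) in controls and was 203, 207, 233 and 288 CPM after the lesion. In all, 3 lesioned libraries lay below every control and 1 inside the control range (-0.44 ± 0.12, edgeR adjusted p = 0.0289). The call was kept in 13 of 18 settings. It was lost with the replicate number as a block and without any 1 of lesioned libraries 1, 2 and 3 or control 3. The adjusted p reached 0.122 over all settings. In Synpo+/+ DG the controls had 343, 301, 281 and 268 CPM and the lesioned libraries 143, 228 and 256 CPM (lowest, median, highest). The groups did not overlap, and the difference missed the threshold (-0.30 ± 0.12, edgeR adjusted p = 0.109), with adjusted p from 0.0441, with a trend of gene length removed, to 0.305 over 18 settings. Without Synpo+/+ DG ECL 5, the lowest of these, it was -0.26 ± 0.10 (edgeR adjusted p = 0.077).

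Gad2 showed 182 to 233 CPM in control and 133 to 218 CPM in lesioned Synpo+/+ DG (0.04 ± 0.11, edgeR adjusted p = 0.826), where 133 CPM is Synpo+/+ DG ECL 5 and the other lesioned libraries had 185 to 218 CPM (0.06 ± 0.09 without it, edgeR adjusted p = 0.68). In Synpo-/- DG it was 192 to 258 CPM in controls and 176 to 209 CPM after the lesion (-0.22 ± 0.12, edgeR adjusted p = 0.29). The ratio of Gad1 to Gad2 counts within a library, looked at after the values were seen and given without a test, ran from 1.30 to 1.54 in control and from 1.01 to 1.22 in lesioned Synpo+/+ DG, with no overlap. Synpo+/+ DG ECL 5, at the low end for both genes, had a ratio of 1.08. This lay inside the range of the other lesioned Synpo+/+ DG libraries and also inside that of lesioned Synpo+/+ CA3 (1.00 to 1.28). In Synpo-/- DG the ratio was 1.27 to 1.69 in controls and 0.994 to 1.38 after the lesion, and these overlapped. Synpo-/- CA3 had 1.03 to 1.51 and 0.905 to 1.27.

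**Figure D3:**
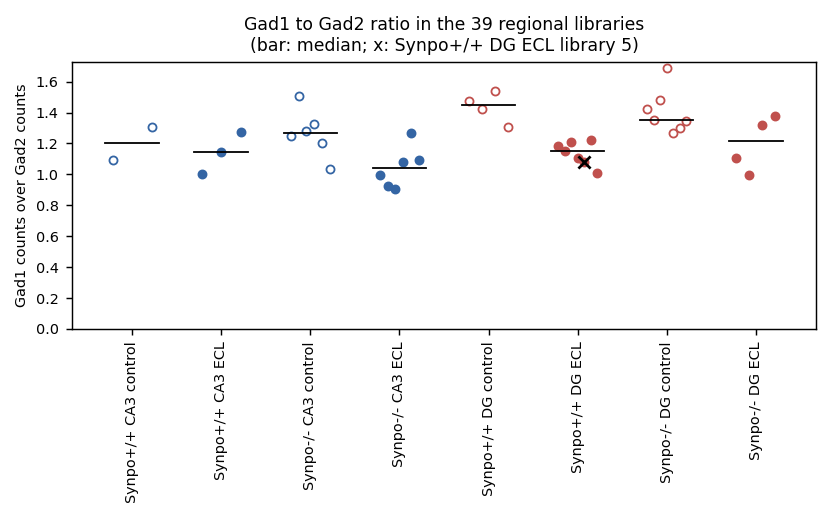
Ratio of Gad1 to Gad2 counts in each of the 39 regional libraries, CA3 in blue and DG in red, controls open and lesioned cultures filled, with bars at the medians and a cross on Synpo+/+ DG ECL library 5. The lesioned Synpo+/+ DG libraries (median 1.15) lie below the control ones (median 1.45), and the other control and lesioned groups overlap.

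Cck varied widely between libraries. In Synpo+/+ CA3 it was 24.6 and 22.7 CPM in controls and 47.4, 36.8 and 37.7 CPM after the lesion, without overlap (0.91 ± 0.14, edgeR adjusted p = 0.0276). The call was kept in 7 of 12 settings and lost without control 1, without lesioned library 1 or 2, with a trend of gene length removed, and when all 4 CA3 groups were fitted together (edgeR adjusted p = 0.647). In Synpo-/- CA3 the 6 controls held 4.7, 8.35 and 13.5 CPM (lowest, median, highest), and the lesioned libraries had 8.58, 5.68, 4.42, 60.6, 45.1 and 83.1 CPM. Of these, 3 sat with the controls and 3 far above them, and the fitted difference was 1.96 ± 0.77 (edgeR adjusted p = 0.653). Markers of CA1, subiculum and entorhinal neurons summed to 191, 121, 165, 223, 216 and 323 CPM in these 6 libraries and to 120 to 198 CPM in the controls. In lesioned Synpo-/- DG Cck was likewise split, at 25.6, 10.7, 83.2 and 97.9 CPM, where those markers summed to 328, 259, 336 and 226 CPM. Their part in the Cck values was not tested.

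Calb2 in Synpo+/+ CA3 was 7.04 and 5.94 CPM in controls and 11.4, 9.67 and 8.34 CPM after the lesion. The groups did not overlap, and the difference missed the threshold (0.73 ± 0.19, edgeR adjusted p = 0.0782). Npy in DG had differences of 0.33 ± 0.27 and 0.27 ± 0.20 in Synpo+/+ and Synpo-/- cultures (edgeR adjusted p = 0.404 and 0.501). Without Synpo+/+ DG ECL 5 the former was 0.44 ± 0.19 (edgeR adjusted p = 0.131). Sst, Pvalb, Vip, Reln and Slc32a1 had lesion differences from -0.38 to 0.32 over the 4 regional comparisons, with adjusted p from 0.276 upwards.

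**Figure D4:**
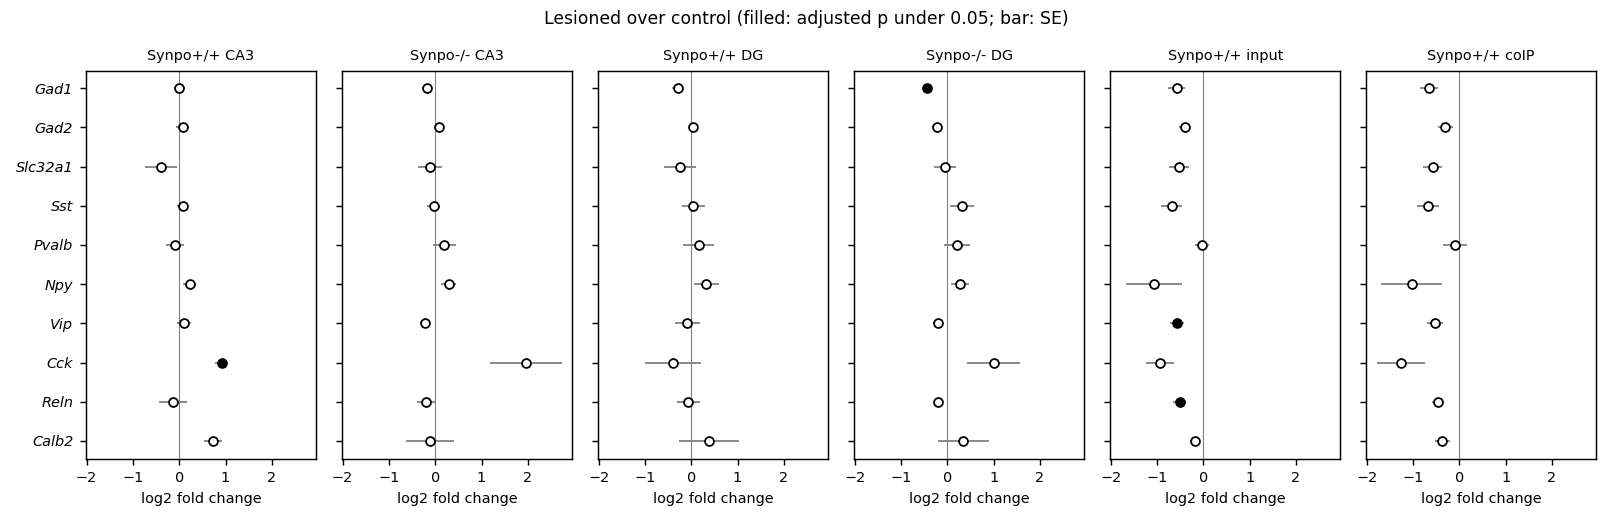
Fitted log2 fold change of lesioned over control cultures for each gene in 6 sample types, with standard errors as bars and filled points for an adjusted p under 0.05. Cck in Synpo+/+ CA3, Gad1 in Synpo-/- DG, and Vip and Reln in Synpo+/+ input are the filled points.

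In the same DG comparisons glial lists moved. All 12 microglial genes were called higher in Synpo+/+ and 10 of 12 in Synpo-/- lesioned DG (medians 1.25 and 0.86), as were 7 and 8 of 10 astrocyte genes. The microglial sum was 574 to 764 CPM in control and 1257 to 1594 CPM in lesioned Synpo+/+ DG, and its part in the Gad1 difference was not tested. Pan-neuronal genes had 0 of 10 called in Synpo+/+ and 1 of 10 lower in Synpo-/- DG. Of the further interneuron genes 4 of 35 were called higher in lesioned Synpo+/+ DG, beside 1922 of 23720 genes. Among the 4 were the transcription factor genes Sox6 (0.50 ± 0.11) and Dlx5 (0.70 ± 0.22) and the serotonin receptor gene Htr3a (0.70 ± 0.22). In Synpo-/- DG 2 rose, such as Sox6 (0.64 ± 0.12), and 3 fell: Kit (-1.06 ± 0.14), the neuregulin receptor gene Erbb4 (-0.62 ± 0.09) and the RNA-editing enzyme homologue Adarb2 (-0.40 ± 0.08). Among all genes 1175 of 23310 were called higher there and 792 lower. No receptor of the peptides was called in the 4 regional lesion comparisons.

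In whole-culture input of lesioned Synpo+/+ cultures Vip and Reln fell. The fitted differences of all 10 genes were below 0, and the median over all genes was -0.003. The share of all genes below 0 is not given. All 10 were measured in the same libraries, so their shared sign is not 10 separate results. Vip fell from 71.7, 46, 42.5, 44 and 43.1 CPM in controls to 34.8, 40.4, 31.8, 35.1 and 29.8 CPM (-0.57 ± 0.15, edgeR adjusted p = 0.0419), with no overlap. Reln fell from 39.1, 39.3, 29.8, 34.8 and 37.9 CPM to 35.5, 28.5, 25, 23.2 and 18.6 CPM (-0.51 ± 0.14, edgeR adjusted p = 0.0451), with overlap. These were 2 of the 10, beside 5.29% of all genes. At an unadjusted p under 0.05 there were 7, beside 3473 of 17951 genes. DESeq2 called 5, for which the share of all genes is not given. Both edgeR calls, of Vip and Reln, were lost in 8 of 15 settings. Sst was 885, 519, 407, 466 and 388 CPM in controls and 385, 288, 335, 360 and 355 CPM in lesioned input, without overlap (-0.68 ± 0.22, edgeR adjusted p = 0.117). Gad1 and Gad2 had -0.57 ± 0.18 and -0.40 ± 0.12 (edgeR adjusted p = 0.0946 and 0.0644), and Pvalb -0.03 ± 0.15 (edgeR adjusted p = 0.953). In these inputs 4 of 10 pan-neuronal genes were called lower, with a list median of -0.23, and 4 of 12 microglial genes higher. Of 33 further interneuron genes tested, 4 fell, Lamp5 (-0.59 ± 0.10), Dlx1 (-0.64 ± 0.13), Nxph1 (-0.37 ± 0.09) and Satb1 (-0.52 ± 0.12), and Sox6 rose (0.35 ± 0.09). Among all genes 513 of 17951 were called lower and 437 higher. Between the lesioned and control coIP libraries edgeR called 0 of the 10, beside 0.341% of all genes, and DESeq2 called 0. At an unadjusted p under 0.05 there were 7, beside 2244 of 18449 genes.

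Genotypes, as labelled, were compared at each region and lesion state, and edgeR and DESeq2 each called 0 of the 10 in all 4 comparisons. The share of all genes called by edgeR was 0.128% in control CA3, 0.00891% in lesioned CA3, 0.0207% in control DG and 0.0166% in lesioned DG. At an unadjusted p under 0.05 there were 3 of the 10 in control CA3, beside 3955 of 24203 genes. There were 0 in lesioned CA3, control DG and lesioned DG, beside 1359 of 22447, 3742 of 24143 and 845 of 24100 genes. In control CA3 Cck was lower in all 6 Synpo-/- libraries (4.7 to 13.5 CPM) than in the 2 Synpo+/+ libraries (-1.32 ± 0.41, edgeR adjusted p = 0.176). Vip (0.43 ± 0.14, edgeR adjusted p = 0.169) and Calb2 (1.66 ± 0.70, edgeR adjusted p = 0.303) were higher in all 6, also short of the threshold. These 3 are named because they alone of the 10 did not overlap there. The share of all genes without overlap is not given, so the separation of 2 from 6 libraries does not set them apart. The difference of the lesion effect between genotypes or between regions was also tested. edgeR and DESeq2 called 0 of the 10 in each. Of all genes edgeR called 0% for genotype by lesion in CA3 and 0.00381% in DG. For region by lesion it called 0% in Synpo+/+ and 1.15% in Synpo-/-. At an unadjusted p under 0.05 there were 0 of the 10 in each. Beside them stood 4565 of 26821, 2706 of 26245, 1212 of 27783 and 2760 of 25435 genes, in the same order.

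The coIP libraries asked which transcripts are enriched over input. In Synpo+/+ control cultures Slc32a1 and Reln were higher in the coIP and Sst, Pvalb, Vip and Calb2 lower, 6 of the 10 beside 55% of all genes. In lesioned cultures the same 6 and Npy were called, 7 of the 10 beside 58.1%, all in the same direction as in controls. The Npy call (-1.07 ± 0.39, edgeR adjusted p = 0.034) was kept in 8 of 16 settings, with adjusted p up to 0.497, its value with the length trend removed. In Synpo-/- cultures, where the antibody lacks its target by label, 4 of 10 were called beside 31.4% of all genes: Slc32a1, Cck and Reln higher and Pvalb lower. Against shares of this size among all genes, the counts do not set these genes apart. Changes are relative to the bulk of genes, since the fit sets their average near 0, and a CPM value can differ in direction from it for small changes.

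Pvalb was the most depleted. Control input had 78, 57.8, 44.8, 54.8 and 46 CPM and control coIP 21.8, 20.9, 13, 15.8 and 13.5 CPM (-1.87 ± 0.20, edgeR adjusted p = 3.28e-06). Lesioned cultures gave 65, 59.6, 43.8, 59.8 and 56.9 CPM in input and 23.3, 10.2, 19.1, 10.9 and 18.8 CPM in coIP (-1.96 ± 0.23, edgeR adjusted p = 1.02e-05). Synpo-/- input had 60.2 and 66.2 CPM and coIP 35.5 and 19.3 CPM (-1.36 ± 0.23, edgeR adjusted p = 0.00124). Input and coIP did not overlap in any of the 3, and Pvalb was called in every setting tried, 16, 16 and 10 in number.

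Calb2 was measured at 125, 136, 147, 150 and 162 CPM in control input and 98.1, 82.3, 81.3, 89.6 and 77.6 CPM in control coIP (-0.89 ± 0.09, edgeR adjusted p = 9.07e-07). The lesioned difference was -1.10 ± 0.18 (edgeR adjusted p = 0.000143). Both were free of overlap. In Synpo-/- cultures the lysate with 170 CPM in input had 156 CPM in coIP, and the lysate with 152 CPM had 124 CPM (-0.37 ± 0.14, edgeR adjusted p = 0.0608). Calb2 passed there with the lysate as a block (-0.38, edgeR adjusted p = 0.0384), by DESeq2 (adjusted p = 0.0412), without the filter on low counts and without coIP library 2. With a trend of gene length removed it was at -0.04 (edgeR adjusted p = 0.848).

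Sst had 885, 519, 407, 466 and 388 CPM in control input and 399, 234, 174, 191 and 190 CPM in coIP (-1.32 ± 0.31, edgeR adjusted p = 0.00502). In every lysate the coIP lay below its own input, although the highest coIP value exceeded the lowest input value. In Synpo-/- cultures Sst was 434 and 395 CPM in input and 377 and 388 CPM in coIP (-0.28 ± 0.13, edgeR adjusted p = 0.121). Npy followed the same pattern with a wider spread. Its control inputs were 1149, 470, 179, 224 and 176 CPM and their coIP libraries 621, 266, 89.7, 103 and 94.4 CPM (-1.07 ± 0.81, edgeR adjusted p = 0.296). Libraries 1 and 2 were high in both fractions, and their oligodendrocyte marker sums (1784 and 2300 CPM in input) were below those of libraries 3 to 5 (4846 to 5494 CPM). Synpo-/- cultures had 214 and 221 CPM of Npy in input and 201 and 196 CPM in coIP (-0.30 ± 0.13, edgeR adjusted p = 0.0897).

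In Synpo+/+ cultures input and coIP of one number come from one lysate, and they deviated together. With the lysate as a block, 9 of the 10 were called in controls, beside 62.4% of all genes, which added Npy (-1.09, edgeR adjusted p = 2.07e-09), Cck (-0.68, edgeR adjusted p = 0.00425) and Gad1 (0.16, edgeR adjusted p = 0.0432). In lesioned cultures the block called 7, beside 62.3% of all genes. There Cck was gained (-0.91, edgeR adjusted p = 0.00653) and Slc32a1 lost (0.51, edgeR adjusted p = 0.0689).

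Slc32a1, whose protein sits in synaptic vesicles, had 4.6, 3.6, 2.09, 2.95 and 3.94 CPM in control input and 6.36, 5.92, 5.59, 5.49 and 5.71 CPM in coIP (0.61 ± 0.20, edgeR adjusted p = 0.0173). In lesioned cultures input had 2.09 to 2.99 CPM and coIP 3.12 to 6.46 CPM (0.53 ± 0.22, edgeR adjusted p = 0.0497). In Synpo-/- cultures it had 2.77 and 3.07 CPM in input and 5.7 and 5.63 CPM in coIP (0.79 ± 0.25, edgeR adjusted p = 0.032). The fractions did not overlap in any of the 3. The lesioned call was kept in 6 of 16 settings, and the Synpo-/- call was lost when any 1 of the 4 libraries was left out.

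Reln, the longest of the 10 transcripts, had 85.7, 72.3, 62.5, 60.7 and 65.3 CPM in control coIP, above the 29.8 to 39.3 CPM of its inputs (0.79 ± 0.12, edgeR adjusted p = 4.08e-05). Lesioned and Synpo-/- cultures gave 0.82 ± 0.15 and 0.59 ± 0.15 (edgeR adjusted p = 0.000319 and 0.0101). Long transcripts were higher in coIP than short ones across all genes, and with that trend of length removed Reln differed by 0.10, 0.08 and 0.09 (edgeR adjusted p = 0.541, 0.674 and 0.656). The control Vip call was lost with the trend removed (-0.45, edgeR adjusted p = 0.0886). With it removed Pvalb kept its call (-1.17, -1.21 and -0.98), as did Slc32a1 (0.88, 0.88 and 0.96). Sst was then at -0.53 in control cultures (edgeR adjusted p = 0.146), at -0.52 in lesioned cultures (edgeR adjusted p = 0.00729), and at -0.55 in controls with the lysate as a block as well (edgeR adjusted p = 1.5e-06).

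Gad1 and Gad2 differed little between fractions, with 0.18 ± 0.23 and -0.10 ± 0.16 in control cultures (edgeR adjusted p = 0.538 and 0.604). Vip was lower in coIP of control (-0.61 ± 0.20, edgeR adjusted p = 0.0185) and lesioned Synpo+/+ cultures (-0.59 ± 0.12, edgeR adjusted p = 0.000922). Its Synpo-/- values were 38.1 and 34.9 CPM in input and 36.3 and 36.8 CPM in coIP (-0.16 ± 0.14, edgeR adjusted p = 0.419). Cck had 8.51 and 11.6 CPM in Synpo-/- input and 20.9 and 19.8 CPM in Synpo-/- coIP (0.86 ± 0.19, edgeR adjusted p = 0.00569), and in control Synpo+/+ cultures -0.46 ± 0.48 (edgeR adjusted p = 0.443).

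**Figure D5:**
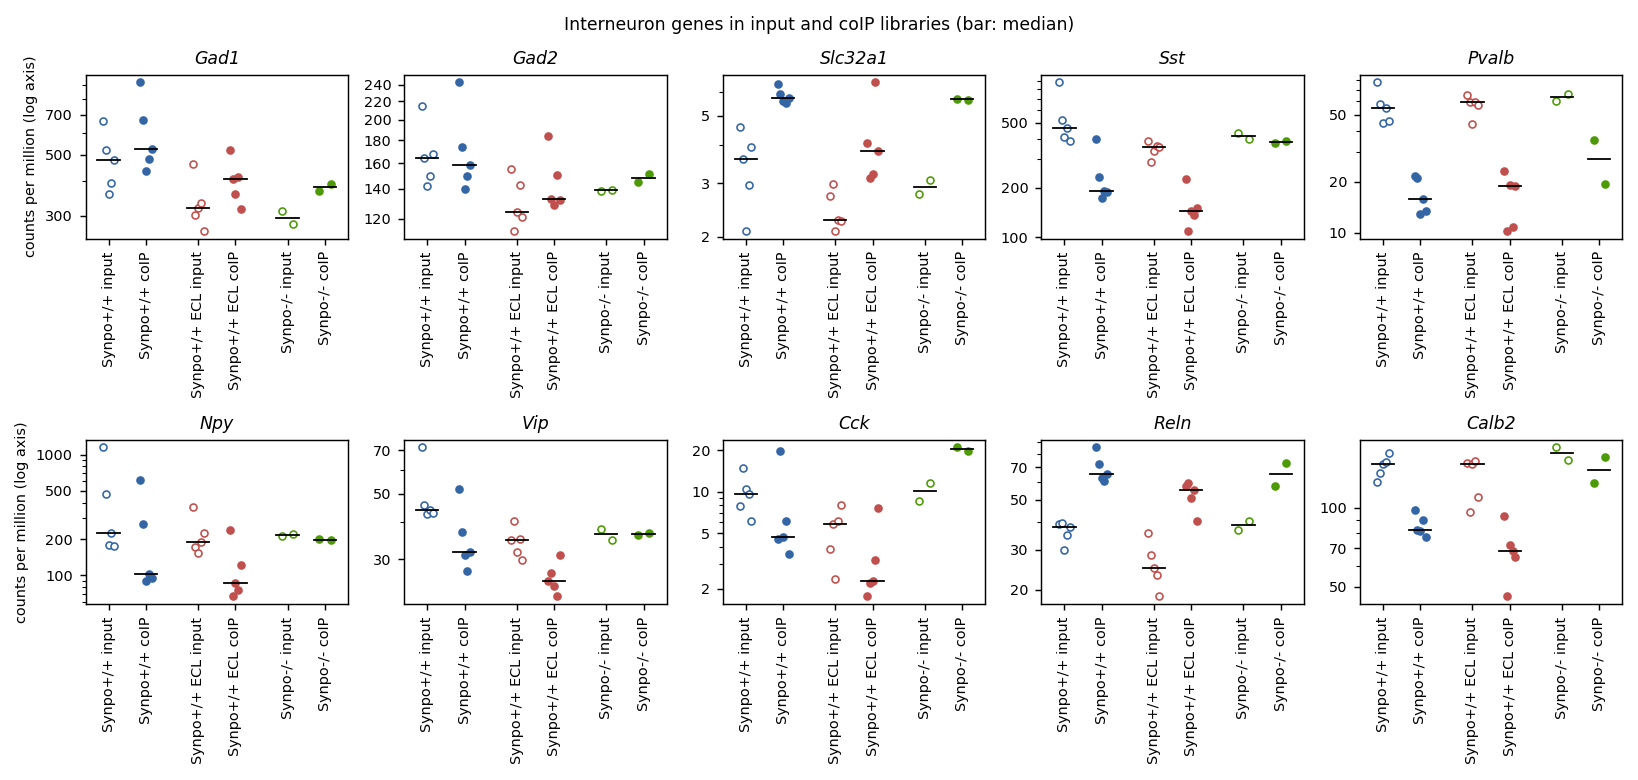
CPM (log axes) of the 10 genes in input (open) and coIP (filled) libraries of Synpo+/+ control (blue), Synpo+/+ lesioned (red) and Synpo-/- (green) cultures, with bars at the medians. Pvalb is lower in every coIP group than in its input, and Reln and Slc32a1 are higher.

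Whether the coIP difference itself depended on genotype was tested by an interaction. edgeR and DESeq2 called 0 of the 10, and edgeR 0% of all genes. At an unadjusted p under 0.05 there was 1, Calb2 (0.57 ± 0.17, edgeR adjusted p = 0.486), beside 1503 of 20621 genes. With the lysate as a block 3 were called, beside 0.31% of all genes: Sst (1.09, edgeR adjusted p = 0.00409), Npy (0.84, edgeR adjusted p = 0.0191) and Cck (1.60, edgeR adjusted p = 0.0469), each less depleted or more enriched in Synpo-/- coIP. These rest on 2 Synpo-/- lysates of unknown lesion state, whose fractions deviated together by no more than r = 0.0456. For lesion by fraction edgeR and DESeq2 called 0 of the 10, and edgeR 0% of all genes. At an unadjusted p under 0.05 there were 0, beside 422 of 19581 genes.

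Among the other lists in the coIP, the receptor genes Sstr3, Lrp8, Vldlr and Vipr1 were higher in all 3 comparisons, 4 of 12 tested in each. Of all genes, 5390 of 18222 were called higher in Synpo+/+ control cultures. In Synpo+/+ lesioned and Synpo-/- cultures 5559 of 18229 and 3122 of 20892 were. Lrp8 and Vldlr encode the reelin receptors and had 0.78 ± 0.10 and 0.74 ± 0.11 in Synpo+/+ control and 0.76 ± 0.14 and 0.58 ± 0.13 in Synpo-/- cultures. Of 34 further interneuron genes tested in Synpo+/+ controls, 13 were higher, such as the potassium channel gene Kcnc1 (1.02 ± 0.09) and Erbb4 (0.89 ± 0.12), and 5 lower, such as the transcription factor genes Dlx5 (-1.55 ± 0.12) and Lhx6 (-0.92 ± 0.10). In Synpo-/- cultures 7 of 35 were higher and 4 lower, Lhx6 (-1.28 ± 0.14) and Dlx5 (-0.88 ± 0.18) among them. Among all genes 4636 were called lower in Synpo+/+ controls and 3435 in Synpo-/- cultures. In Synpo+/+ controls, counts of this size do not set the lists apart from all genes. The trend of gene length was not removed for the lists.

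Within groups, the 10 genes varied together to different degrees over the 39 regional libraries. As a description of libraries that also share the other cells of their region, the deviations of log2 CPM from group means correlated at r = 0.67 for Gad1 and Gad2, 0.76 for Gad1 and Sst, 0.74 for Sst and Calb2 and 0.43 for Gad1 and Slc32a1. Without Synpo+/+ DG ECL 5 (n = 38) the values were 0.51, 0.63, 0.57 and 0.48 for these pairs. Pvalb and Calb2, picked as the lowest of all pairs, were then at -0.64, and at -0.29 over the 39 libraries. Among the 5 of 17544 genes nearest to the mean of Gad1, Gad2 and Slc32a1 were Tenm2 (r = 0.87), Lgi2 (0.82), Dlx1 (0.79) and Ybx1 (0.79). Dlx1 encodes a transcription factor of the interneuron lineage. Without that library Tenm2, Lgi2 and Dlx1 remained among the nearest 5, joined by Camk2n2 and Pcbp1.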

How the data were processed

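RNA-sequencing counts of 63 libraries in 14 groups were used, grouped by their labels. The authors trimmed reads with cutadapt 3.5, aligned them to mm10 with STAR 2.7.8a and counted them without strand with featureCounts 2.0.1 over GENCODE M25 exons, and these deposited raw counts per gene symbol are the values read here. For 107 symbols that stand for more than 1 annotated gene the count is a sum or cannot be divided; none of the 10 genes is among them. Each comparison was fitted on its own groups with the quasi-likelihood test of edgeR 4.0.16 (R 4.3.3), after TMM scaling and the filterByExpr filter, and p-values were adjusted over all genes tested (Benjamini-Hochberg), with a call at 0.05. Counts per 1000000 (CPM) use the total count, and transcripts per 1000000 (TPM) also the exonic length of GENCODE M25. The test was checked on simulated data.

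Precision is set by 2 to 7 libraries a group and by depth, the total counts being 11601154 to 53682143. Named are the 10 genes in every comparison, Synpo, Prox1 for library checks, up to 4 called genes of each list with the smallest p, and the 5 genes nearest in correlation to the GABA genes. The fifth gene of short lists, Dlx5 in Synpo-/- coIP and Gm14205 were chosen after their values were seen. Some genes that this rule names are not reported here. The genes and lists were chosen with earlier results of these data known. Correlations used log2 CPM with a pseudocount of 0.5 counts and genes of at least 1 CPM on average. Alternatives were DESeq2 1.42.0, its size factors (RLE), no filter, a mean normalized count over 300, a length trend removed (lowess span 0.3), a single fit of the 4 groups of a region, a replicate block, and each library left out. Leaving out each library was not done for DG over CA3 in Synpo-/- controls or for the interaction tests. In those interaction tests that held Synpo+/+ DG ECL 5, only that library was left out.

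Replicate numbers pair input and coIP of the same lysate in Synpo+/+ cultures: deviations from the group means correlated at r = 0.189 to 0.442 in every control pair and 0.105 to 0.381 in every lesioned pair. Numbers of the other comparisons did not pair the libraries by this check. The inputs of the Synpo-/- lysates carry crossed numbers in their labels and were matched by preparation.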

Additional observations from a re-analysis of the deposited data

Results flagged for a closer look

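Of 100 sets of 4 to 10 libraries (1 gene in 1 group) 15 had a single library far from the others, by Dixon's criterion, where chance alone flags about 1 in 20, or 5. In Synpo+/+ DG ECL 5, the library with the CA3-like Prox1 level, 3 genes were apart: Gad1 at 143 CPM (the others 221 to 256), Gad2 at 133 CPM (185 to 218) and Reln at 21.0 CPM (66.7 to 99.3). The first Synpo+/+ control lysate was apart for Sst in input (885 CPM, the others 388 to 519) and in coIP (399 CPM, 174 to 234) and for Vip in input (71.7 CPM, 42.5 to 46.0). Calb2 was high in the first Synpo-/- CA3 control (44.3 CPM, 9.84 to 19.6) and the first lesioned Synpo-/- CA3 library (47.2 CPM, 8.63 to 15.8). That control also had the highest Prox1 and granule cell marker sum of its group. The lesioned library had 25.2 CPM of Prox1, against 14.2 to 24.8 CPM in the rest of its group. Its granule cell markers summed to 194 CPM, inside the 135 to 203 CPM of the rest. The part of dentate tissue in these Calb2 values was not tested.

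Single libraries made up the rest. Sst reached 890 CPM in lesioned Synpo-/- DG library 4 (336 to 414), and Npy was low, at 238 CPM, in Synpo-/- DG control 1 (385 to 442). Slc32a1 reached 6.94 CPM in lesioned Synpo-/- CA3 library 6 (1.81 to 2.86) and 6.46 CPM in lesioned Synpo+/+ coIP library 4 (3.12 to 4.06). Cck was 19.6 CPM in Synpo+/+ control coIP 2 (3.55 to 6.16) and 7.67 CPM in lesioned Synpo+/+ coIP 5 (1.75 to 3.19). Reln in Synpo+/+ DG control 4, at 95.2 CPM, stood above 3 libraries at 77.4 to 79.0 CPM.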

How the results depend on the processing

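Numbers are genes called of the 10, with the reported number in brackets. The share of all genes called under a changed setting is not given in this section. The numbers therefore show only how the calls moved. Without the filter on low counts they were 2 (1) for the lesion in Synpo+/+ CA3, 0 (1) for DG over CA3 in lesioned Synpo+/+, 1 (2) for the lesion in input and 3 (0) for genotype by fraction. With the length trend removed they were 0 (1) for the lesion in Synpo+/+ CA3, 1 (0) in Synpo+/+ DG and 3 (6) for coIP over input in Synpo+/+ controls; this shifted the median of all genes to -0.14 in both of these lesion comparisons and to 0.10 in the coIP comparison. Fitting all 4 CA3 groups together gave 0 (1) for the lesion in Synpo+/+ CA3. DESeq2 gave 4 (1) for DG over CA3 in lesioned Synpo+/+ and 5 (2) for the lesion in input. The causes were not tested.

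With the replicate number as a block, where numbers are shared only as labels, the counts were 0 (1) for the lesion in Synpo-/- DG, 6 (1) for DG over CA3 in lesioned Synpo+/+, 5 (0) and 2 (0) for genotype in control and lesioned CA3, 4 (2) for the lesion in input, and 3 (0) for genotype by fraction, the last with lysates as blocks. A number held by only 1 of the groups took its own term, so its library added nothing to the difference. For genotype this left 2 same-numbered pairs in control CA3 and 3 in lesioned CA3. DG over CA3 in lesioned Synpo+/+ was left with 3 pairs, without DG library 5. The lesion in Synpo-/- DG was left with 4 pairs. The block moved no other count by more than 1.5 times.

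Leaving out 1 library at a time gave 0 to 1 (1) for the lesion in Synpo+/+ CA3 and in Synpo-/- DG, 1 to 6 (5) for DG over CA3 in Synpo+/+ controls, 0 to 6 (1) in lesioned Synpo+/+, 3 to 5 (4) in lesioned Synpo-/-, 5 to 7 for coIP over input in Synpo+/+ control (6) and lesioned (7) cultures, 1 to 4 (4) in Synpo-/- cultures, and 0 to 2 (2) for the lesion in input. The 1 for DG over CA3 in Synpo+/+ controls came without CA3 control 2, and the 6 in lesioned Synpo+/+ without DG library 5; the 1 in Synpo-/- coIP came without input 1. The Synpo+/+ region and genotype tests by lesion, refitted without DG ECL 5 as an alternative chosen after seeing the data, stayed at 0. DG over CA3 in Synpo-/- controls was not refitted with libraries left out. No called difference changed sign. Limits are the 2 Synpo+/+ CA3 controls, the 2 Synpo-/- lysates, and Slc32a1 at a few CPM.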
